A study of Homo sapiens with 12 samples.

Results

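Heat shock proteins and other chaperones are described here in HEK293T cells, a transformed human embryonic kidney line, after transient expression of GADD45a and of 2 forms of ING1b. The members were chosen by name: all probes whose gene symbol in the platform's probe table is 1 of 42 listed chaperones, co-chaperones and heat shock factors. Of the 42 genes, 39 had a probe, with 57 of the 47323 probes on the array, and 47 of these probes passed the detection filter. The fit covered 34 of the members among 10645 genes, namely 16 of 19 stress-inducible genes with a probe, all 3 endoplasmic reticulum (ER) stress-inducible genes and 15 of 17 constitutive genes. HSPB8, DNAJA4, CRYAB, HSPA1L and HSF1 had no probe detected on 2 or more arrays, and AHSA1, HSPB11 and HSF2 were not analysed here.

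Cells were transfected with empty vector (Control), human GADD45a, human ING1b, both proteins (GADD45a+ING1b), ING1bΔPHD, which is ING1b with the PHD domain removed, or GADD45a together with that truncated form. RNA was collected 48 h after transfection, and each group holds 2 independently transfected replicates, so 12 Illumina bead arrays were compared. All groups share the lipid transfection and the HEK293T host, which has its own GADD45A and ING1 genes, so the proteins were added to whatever the cells already made. Signals are log2 of the normalized intensity, given per array for replicates 1 and 2, and a change is a log2 difference between group means with the standard error (SE) of a limma fit over the 12 arrays (n = 2 per group). Rises and falls are named only for genes whose limma p, adjusted over all 10645 genes, was under 0.05. Precision is limited throughout by the number of arrays. Levels of different probes cannot be set against each other, since each probe binds with its own strength.

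Chaperones hold unfolded proteins and help them reach or regain their shape. HSP70 proteins bind exposed stretches of a client with energy from ATP, HSP40 (DNAJ) proteins bring clients to HSP70 and start its ATPase, HSP110 proteins exchange its nucleotide, and HSP90 finishes the folding of kinases and receptors. Many of these genes are switched on by the transcription factor HSF1, which is released when unfolded proteins occupy the chaperones and then binds heat shock elements, inverted repeats of the letters GAA and TTC. Other members are made at all times, and the chaperones of the ER answer to a separate signal, the unfolded protein response. ING1b is a tumour suppressor protein whose PHD finger binds trimethylated lysine 4 of histone H3, and GADD45a is a stress-induced protein that has been linked to active DNA demethylation.

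The promoters of 36 of the 42 genes were matched by symbol in RefSeq (GRCh38.p14), as 250 bases before to 50 bases after each listed transcript start. A heat shock element of 3 blocks was searched as GAANNTTC followed, with 2 bases of any kind between, by a further GAA, on both strands. Pairs of blocks were searched as GAANNTTC or TTCNNGAA, which also match inside the longer motif. The 3-block form stood in 9 of 51 member promoters (17.6%) and in 172 of all 35116 promoters (0.49%). Within the members it stood in 6 of 28 promoters of stress-inducible genes (21.4%), in 3 of 20 of constitutive genes (15%) and in 0 of 3 of ER genes. The genes with a match were CHORDC1, DNAJA1, HSP90AA1, HSPA6, HSPD1, SERPINH1, DNAJB6, HSP90AB1 and HSPA8. A pair of blocks stood in 15 of 28 stress-inducible promoters (53.6%), in 7 of 20 constitutive promoters (35.0%) and in 4737 of all promoters (13.5%). The 160 bases before 1 listed transcript start, which for HSPA2, DNAJB1 and HSPA8 lies inside the span of the gene record, are printed for the 3 genes that rose (HSPA6, DNAJB1 and HSPA2), for HSPA1B, the main heat-inducible HSP70, and for HSPA8, the constitutive HSP70, so that they can be compared. Capitals mark the block pairs. The stretches are chr1:161524380-161524539 for HSPA6 (plus strand), chr19:14518398-14518557 for DNAJB1 (minus strand), chr14:64540581-64540740 for HSPA2 (plus strand), chr6:31827578-31827737 for HSPA1B (plus strand) and chr11:123062137-123062296 for HSPA8 (minus strand).
HSPA6: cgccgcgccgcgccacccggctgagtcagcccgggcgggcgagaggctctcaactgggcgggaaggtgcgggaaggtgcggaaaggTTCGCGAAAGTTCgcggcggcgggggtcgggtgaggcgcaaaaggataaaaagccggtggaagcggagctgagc
DNAJB1: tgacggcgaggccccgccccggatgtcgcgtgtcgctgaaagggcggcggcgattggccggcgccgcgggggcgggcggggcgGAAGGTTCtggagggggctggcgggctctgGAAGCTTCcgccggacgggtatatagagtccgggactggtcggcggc
HSPA2: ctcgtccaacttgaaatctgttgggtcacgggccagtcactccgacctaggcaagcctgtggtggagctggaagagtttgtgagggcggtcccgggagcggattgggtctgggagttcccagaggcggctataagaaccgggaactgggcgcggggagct
HSPA1B: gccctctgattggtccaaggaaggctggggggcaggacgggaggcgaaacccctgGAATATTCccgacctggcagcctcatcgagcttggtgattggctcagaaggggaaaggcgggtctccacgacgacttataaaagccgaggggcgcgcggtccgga
HSPA8: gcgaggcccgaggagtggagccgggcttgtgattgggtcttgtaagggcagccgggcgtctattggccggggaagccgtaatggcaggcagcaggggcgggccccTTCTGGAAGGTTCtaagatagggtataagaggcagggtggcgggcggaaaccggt
HSPA6 holds 2 overlapping pairs between bases -74 and -62, and HSPA8 holds 2 between -55 and -43. DNAJB1 holds 2 separate pairs between -77 and -40, and its other 2 listed promoters hold none in this stretch. HSPA1B holds 1 pair, at -105 to -98, and the HSPA2 stretch holds no block pair. A match describes the letters only, and binding was not measured.

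The transfected genes and the cell identity were read before the members. One GADD45A probe, ILMN_1694075, went against the labels: its scanner intensity was 743.7 to 1088 on the 6 arrays labelled as without GADD45a and 128.1 to 159.7, never detected, on the 6 labelled as with it. Relative to Control its level fell at least 11.85-fold under the label GADD45a (limma adjusted p = 0.000363). Under GADD45a+ING1b the bound was at least 11.23-fold lower (adjusted p = 0.000269), and under GADD45a+ING1bΔPHD at least 10.8-fold lower (adjusted p = 0.000594). The second probe, ILMN_2052208, differed from Control by -0.53, -0.16 and -0.49 in those 3 groups and passed in none of them. The ING1 probe, ILMN_1662243, was 0.22 to 0.49 above Control in the 4 groups that received a form of ING1b and passed in none. Where these probes lie relative to the transfected inserts was not analysed here, so group names below mean the libraries labelled that way, also where a direction is drawn. If the arrays with and without GADD45a had been exchanged as a whole, the comparison of ING1b with Control would be that of GADD45a+ING1b with GADD45a and the reverse. Of 6 markers of HEK293 cells, VIM, KRT18, NEFL and NEFM were detected on all 12 arrays, KRT8 on 11 and PAX2 on 0. Of 10 measured markers of other cell types, PTPRC, CD3E, HBB, COL3A1, PECAM1, GFAP, MYH7 and DES were detected on no array, ALB on 12 and COL1A1 on 9. ALB, the serum albumin gene of liver cells, read 6.86 to 7.63 on the 4 arrays with full-length ING1b and 6.07 to 6.68 on the other 8, so it moved with the rises of HSPA6, DNAJB1 and HSPA2 described below. Its change from Control was 0.68 (SE 0.239) in ING1b and 0.97 in GADD45a+ING1b (limma adjusted p = 0.0610, blocked adjusted p = 0.0328), and from GADD45a to GADD45a+ING1b it was 1.18 (adjusted p = 0.0786). It was 0.65 and 0.89 higher with full-length than with truncated ING1b, without and with GADD45a, and did not pass. The part of this signal in the results was not tested.

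One control array stood apart in the members. Control replicate 2 was the lowest of the 12 arrays for 15 of the 34 members (44.1%), against 17.9% of all genes, and Control replicate 1 was the lowest for 0 members. The 15 were the stress-inducible genes HSPA1B, HSPA6, HSPH1, HSPD1, HSPE1, HSP90AA1, DNAJA1, DNAJB1, BAG3 and CHORDC1 and the constitutive genes HSPA4L, HSPA8, DNAJA2, DNAJB6 and CDC37. The median deviation of this array from the mean over 12 arrays was -0.43 for the stress-inducible genes, -0.14 for the constitutive genes and 0.00 for all genes. For the members, each comparison with Control is therefore given below with and without this array where that changes a call or a list's median. Calls with the replicate as a block, and those of genes outside the members, were not read without it. Where Control replicate 1 is left out, this array alone stands for Control, so changes of single genes are given there without calls. Groups that do not contain it are compared in the tests of GADD45a+ING1b against GADD45a and of full-length against truncated ING1b.

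**Figure D1:**
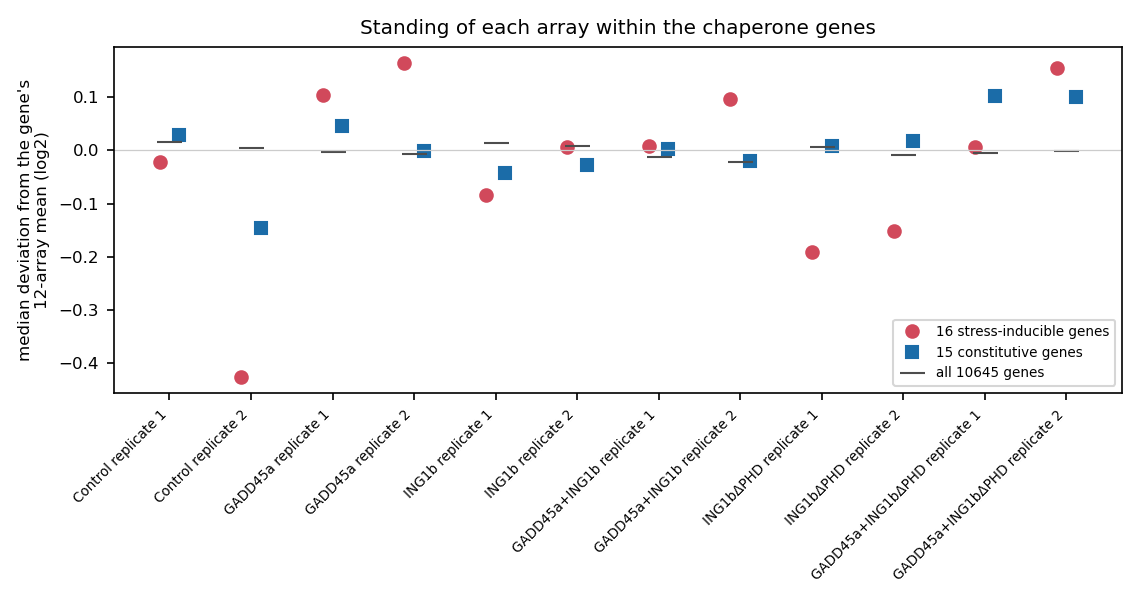
Median deviation of each array from a gene's mean over the 12 arrays (log2), for 16 stress-inducible genes (circles), 15 constitutive genes (squares) and all 10645 genes (bars). Control replicate 2 lies at -0.43 for the stress-inducible genes, below every other array.

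HSPA6 rose where full-length ING1b had been transfected, and did so with and without GADD45a. HSPA6 (chr1:161524540-161526894, GRCh38) encodes HSP70B′, an HSP70 that is nearly silent in unstressed cells and strictly stress-induced in human cells. Its probe ILMN_1806165 read 6.11 and 5.16 in Control, 6.46 and 6.47 in GADD45a, and 7.83 and 7.97 in ING1b. It read 8.62 and 8.95 in GADD45a+ING1b, 6.01 and 5.61 in ING1bΔPHD, and 6.07 and 6.37 in GADD45a+ING1bΔPHD. The 4 arrays with full-length ING1b were the highest of the 12, and no array without it came within their range. The probe was detected on both arrays of each group except Control, where 1 array detected it, and ING1bΔPHD, where neither did. HSPA6 was 2.26 (SE 0.282) above Control in ING1b, which is 4.81-fold (limma adjusted p = 0.00621). In GADD45a+ING1b it was 3.15 (SE 0.282) above Control, which is 8.90-fold (limma adjusted p = 0.000336). Without Control replicate 2 both rises still passed, and without either ING1b array the rise in ING1b alone did not (adjusted p = 0.0737 and 0.0690, within 0.00167 to 0.0737 over 19 alternatives). In GADD45a alone it was 0.83 above Control and did not pass (limma adjusted p = 0.208). That change was 1.30 without Control replicate 1, which leaves the low array alone in Control, and 0.35 without Control replicate 2.

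A second HSPA6 probe gave another pattern. ILMN_1658383 was detected on both arrays of GADD45a (6.56 and 6.17) and of GADD45a+ING1b (6.52 and 6.38) and on none of the other 8 arrays, the ING1b arrays (5.41 and 5.64) included. By this probe GADD45a+ING1b was at least 1.59-fold above Control (limma adjusted p = 0.0261 over all detected probes), while GADD45a, at least 1.498-fold above Control, did not pass (adjusted p = 0.0572). GADD45a+ING1b exceeded GADD45a by only 0.08 on this probe, against 2.33 on the first. Both probes thus passed in GADD45a+ING1b against Control, and only the first passed in ING1b. The second met the detection filter only through the groups where it was high, so its call is no separate support. HSPA6 has close relatives in sequence, and which transcripts each probe binds was not analysed here, so the ING1b result rests on 1 of 2 probes. With the mean over both probes, HSPA6 no longer passed in GADD45a+ING1b against GADD45a (1.20, adjusted p = 0.0986, within 0.000103 to 0.0986 over 19 alternatives) or in ING1b against ING1bΔPHD.

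DNAJB1 rose in the same groups, most in GADD45a+ING1b. DNAJB1 (chr19:14514769-14560391) encodes HDJ1, the HSP40 that delivers clients to the stress-inducible HSP70, and it is a standard target of HSF1. Its probe ILMN_1775304 was detected on all 12 arrays and read 9.35 and 8.65 in Control, 9.67 and 9.50 in GADD45a, and 10.31 and 10.23 in ING1b. It read 11.39 and 11.26 in GADD45a+ING1b, 9.70 and 9.55 in ING1bΔPHD, and 9.80 and 9.89 in GADD45a+ING1bΔPHD. Both GADD45a+ING1b arrays were above both ING1b arrays, and these were above all other 8 arrays, among which the ranges of GADD45a and ING1bΔPHD overlapped. The rise over Control was 2.33 (SE 0.208) in GADD45a+ING1b, or 5.02-fold (limma adjusted p = 0.000336), and this passed under all 20 alternatives. In ING1b it was 1.27 (SE 0.208), or 2.42-fold (limma adjusted p = 0.0305). The ING1b call was close to the threshold: it was lost in 12 of 20 alternatives, where the adjusted p ran from 0.00486 to 0.251 over all 20. Without Control replicate 2 the ING1b change was 0.93 (adjusted p = 0.131), without ING1b replicate 1 or 2 the adjusted p was 0.251 and 0.188, and without any 1 array of the 4 other groups it was 0.0530 to 0.0557. The remaining groups lay above Control by 0.59 in GADD45a, 0.62 in ING1bΔPHD and 0.84 in GADD45a+ING1bΔPHD, and none of these passed. Without Control replicate 1, with the low array alone in Control, those in GADD45a and GADD45a+ING1bΔPHD were 0.94 and 1.19. Without Control replicate 2 they were 0.24 and 0.50.

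HSPA2 was the only constitutive member among those that passed in the comparisons with Control. HSPA2 (chr14:64535905-64543237) encodes an HSP70 that is abundant in the testis, where it serves spermatogenesis, and it is not a classical heat-induced gene. Its probe ILMN_1766499 read 5.99 and 5.63 in Control, 5.53 and 4.86 in GADD45a, and 6.76 and 6.90 in ING1b. It read 7.20 and 7.08 in GADD45a+ING1b, 6.03 and 5.59 in ING1bΔPHD, and 5.31 and 5.42 in GADD45a+ING1bΔPHD. Again the 4 arrays with full-length ING1b lay above the other 8 without overlap. The probe was detected on those 4 arrays and on 1 Control array only, so it met the detection filter through the groups where it was high. With no detection filter HSPA2 still passed in GADD45a+ING1b against Control. The rise over Control was 1.33 (SE 0.235) in GADD45a+ING1b, or 2.52-fold (limma adjusted p = 0.0201). It did not pass without Control replicate 2 (1.16, adjusted p = 0.141), without replicate 1 or 2 of GADD45a+ING1b (adjusted p = 0.128 and 0.0824) or with the authors' deposited values (adjusted p = 0.0818), within 0.00674 to 0.141 over 19 alternatives. In ING1b alone HSPA2 was 1.02 above Control and did not pass (limma adjusted p = 0.158). A second probe, ILMN_2153916, was detected on both GADD45a+ING1b arrays, on 1 ING1b array and on no other. It thus met the detection filter only through groups with full-length ING1b. Its call in GADD45a+ING1b against Control, at least 1.49-fold higher (limma adjusted p = 0.0215), is therefore no separate support.

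**Figure D2:**
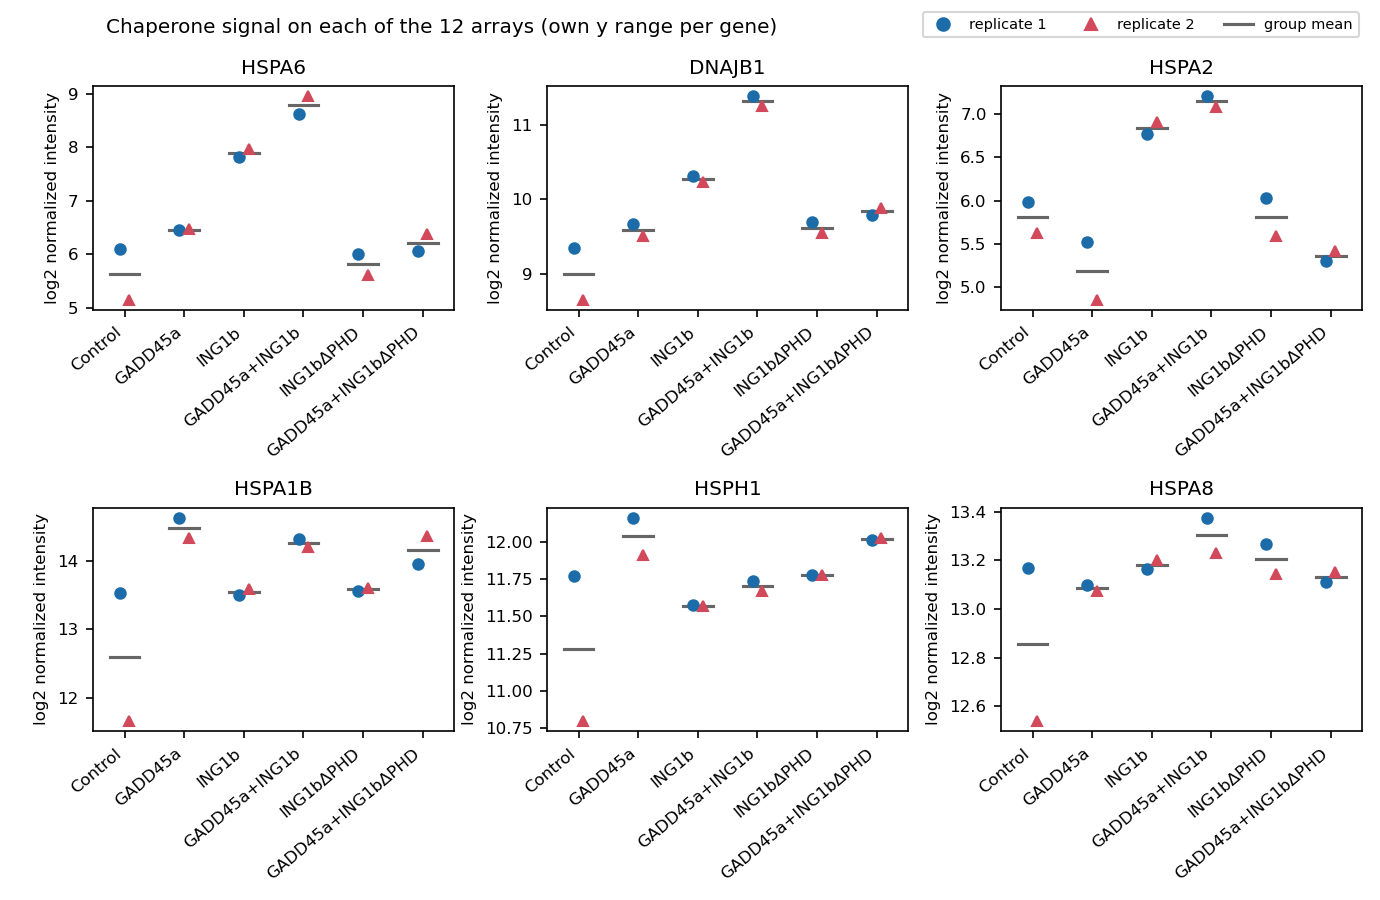
Signal of 6 chaperone genes on each array (log2 normalized intensity, own y range per gene), with circles for replicate 1, triangles for replicate 2 and bars for group means. HSPA6, DNAJB1 and HSPA2 are highest in ING1b and GADD45a+ING1b, while HSPA1B, HSPH1 and HSPA8 are lowest on Control replicate 2.

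Counted over the members, the calls were few and all were rises. In ING1b against Control 2 of 34 members passed, HSPA6 and DNAJB1, where 0.432% of all genes passed. With both proteins 3 of 34 passed against Control, HSPA6, DNAJB1 and HSPA2, where 2.69% of all genes passed. In GADD45a against Control 0 of 34 passed (0.658% of all genes), with 10 members and 1585 genes at an unadjusted p under 0.05. In ING1bΔPHD against Control 0 members and 0% of all genes passed, with 4 members and 1179 genes at an unadjusted p under 0.05. In GADD45a+ING1bΔPHD against Control 0 members passed (0.517% of all genes), with 9 members and 1858 genes at an unadjusted p under 0.05. Replicate differences correlated between all pairs of groups, and with the replicate as a block 5 members rose in GADD45a+ING1b, where 9.26% of all genes passed. Those added were HSPA1B (1.67, blocked adjusted p = 0.0468) and HSPA5 (0.66, blocked adjusted p = 0.0196). With the block DNAJB1 also rose (blocked adjusted p = 0.0324) and DNAJB2 fell (-0.53, blocked adjusted p = 0.0498) in GADD45a+ING1bΔPHD, where 6.06% of all genes passed.

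The rises with full-length ING1b were also seen against the other transfected groups, which share no array with Control. The arrays with full-length ING1b are the same as in the comparisons with Control, so only the baseline differs. Comparing GADD45a+ING1b with GADD45a, 3 of 34 members passed (0.592% of all genes), HSPA6 by 2.33 (SE 0.282), HSPA2 by 1.95 (SE 0.235, at least 2.46-fold) and DNAJB1 by 1.74 (SE 0.208, or 3.34-fold). The limma adjusted p was 0.00384 for each of the 3. DNAJB1 and HSPA2 passed under every alternative that tested them, 20 and 19 settings, with the adjusted p at most 0.0470. HSPA2 had not been detected on either GADD45a array, and its second probe did not pass here (1.45, at least 1.43-fold, adjusted p = 0.0539). This comparison and ING1b against Control have no array in common, and the changes of the 34 members correlated between them with r = 0.851 and rho = 0.711, or r = 0.503 over the 31 members other than these 3. The correlation over all genes was 0.455. The direction of change was the same in both comparisons for 64.7% of the members and 62% of all genes. These are descriptions over genes, which are not independent, and the comparisons share the array platform and the probes.

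The PHD finger comparisons asked whether the same genes differed between full-length and truncated ING1b. HSPA6 was at least 3.62-fold higher in ING1b than in ING1bΔPHD (2.09, SE 0.282, limma adjusted p = 0.01001), the only one of 34 members to pass, where 0.507% of all genes passed. Without any 1 of those 4 arrays it did not pass (adjusted p = 0.0580 to 0.115, within 0.00215 to 0.203 over 19 alternatives). With GADD45a present 3 of 34 members passed (0.498% of all genes). HSPA6 was 5.92-fold higher in GADD45a+ING1b than in GADD45a+ING1bΔPHD (2.57, SE 0.282, limma adjusted p = 0.00227), which held under all 19 alternatives that tested it. The second HSPA6 probe passed in neither comparison: it was -0.01 (adjusted p = 0.9998) in ING1b against ING1bΔPHD, detected in neither group, and 0.94 (adjusted p = 0.272) with GADD45a present. HSPA2 was at least 2.25-fold higher (1.78, SE 0.235, limma adjusted p = 0.00786). Its second probe, at least 1.31-fold higher (limma adjusted p = 0.0410), met the detection filter only through full-length ING1b arrays and is no separate support. DNAJB1 was 2.80-fold higher (1.48, SE 0.208, limma adjusted p = 0.0109). The DNAJB1 call was lost without any 1 of the 4 arrays (adjusted p = 0.0572 to 0.108, within 0.000541 to 0.108 over 20 alternatives). The HSPA2 call was lost without GADD45a+ING1b replicate 1 or 2 or GADD45a+ING1bΔPHD replicate 1 (adjusted p = 0.0777, 0.0565 and 0.0838) and with the authors' deposited values (adjusted p = 0.0712, within 0.00386 to 0.0838 over 19 alternatives).

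Other members lay apart in both PHD comparisons without passing. STIP1, or HOP, which links HSP70 to HSP90, was 0.97 (SE 0.430, limma adjusted p = 0.643) and 1.05 (adjusted p = 0.483) higher with full-length ING1b. Its replicates differed widely, with 9.64 and 10.77 in ING1bΔPHD and 10.00 and 11.20 in GADD45a+ING1bΔPHD. DNAJB2, an HSP40 known from neurons, read 9.61 and 9.64 in ING1b and 9.66 and 9.48 in GADD45a+ING1b. It read 8.90 and 9.07 in ING1bΔPHD and 8.77 and 8.90 in GADD45a+ING1bΔPHD, so the 2 forms of ING1b did not overlap. The DNAJB2 changes were 0.64 (SE 0.148, limma adjusted p = 0.151) and 0.74 (adjusted p = 0.0815). HSPA5, the ER HSP70 known as BiP, was 0.46 and 0.66 higher (SE 0.188), and STUB1, the ubiquitin ligase CHIP that marks chaperone clients for degradation, was -0.70 and -0.65 (SE 0.184), with none passing. With the replicate as a block 5 members rose in GADD45a+ING1b against GADD45a+ING1bΔPHD, where 1.19% of all genes passed, and the added genes were HSPA5 (blocked adjusted p = 0.0496) and DNAJB2 (blocked adjusted p = 0.0390). The pair of PHD comparisons shares no array, and the 34 changes correlated between them with r = 0.867 and rho = 0.668, or r = 0.665 over 31 members without the 3 called genes, against 0.474 over all genes. The direction of change was the same in both for 61.8% of the members and 63.4% of all genes. These are descriptions over genes with the same probes.

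**Figure D3:**
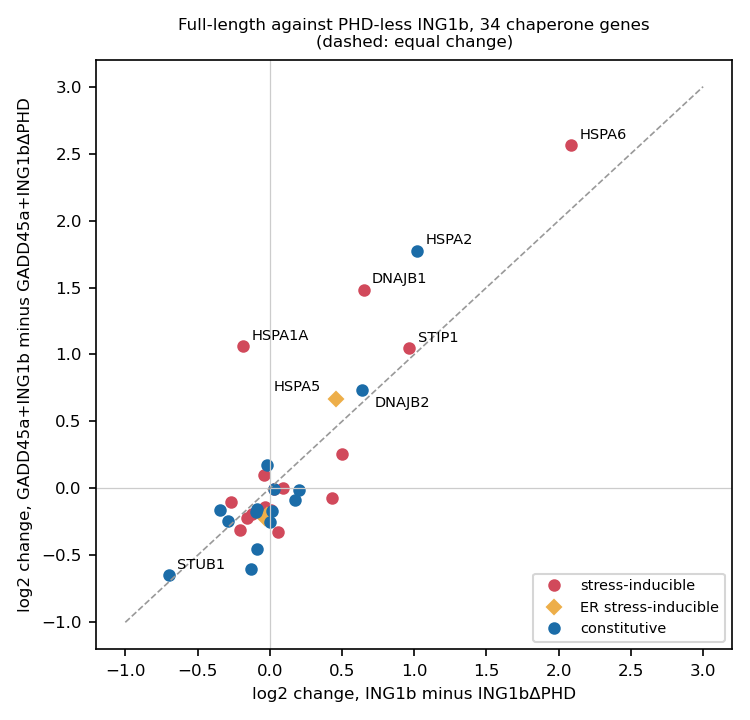
Change of each of 34 chaperone genes between full-length ING1b and ING1bΔPHD (log2), without GADD45a on the x axis and with GADD45a on the y axis, coloured by class. HSPA6, HSPA2 and DNAJB1 lie highest on the y axis, and most other members lie near 0 on both axes.

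Adding GADD45a to ING1b changed no member past the threshold. Comparing GADD45a+ING1b with ING1b, 0 of 34 members passed (0.357% of all genes), with 2 members and 705 genes at an unadjusted p under 0.05. DNAJB1 was 1.05 (SE 0.208) higher, with 11.39 and 11.26 against 10.31 and 10.23, so the groups did not overlap, and its limma adjusted p was 0.0924. With the replicate as a block it passed (blocked adjusted p = 0.0357), as 1 member where 0.601% of all genes passed. HSPA6 was 0.89 (SE 0.282) higher (limma adjusted p = 0.425). The interaction, which asks whether the change with both proteins differs from the sum of the single changes, passed for 0 members and 0% of all genes, with 1 member and 442 genes at an unadjusted p under 0.05. It was 0.06 (SE 0.398) for HSPA6, 0.47 (SE 0.294) for DNAJB1 and 0.92 (SE 0.333) for HSPA2, each with a limma adjusted p of 0.9996.

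The best known heat-induced gene, HSPA1B, did not follow the first HSPA6 probe, ILMN_1806165. Its group means were highest in GADD45a (14.48) and GADD45a+ING1b (14.26), the groups where the second HSPA6 probe was detected. In GADD45a+ING1bΔPHD, where that probe was not detected, the HSPA1B mean was 14.16. HSPA1B (chr6:31827738-31830254) encodes the major stress-inducible HSP70, and its coding sequence is nearly the same as that of HSPA1A, whose gene lies beside it, so their signals are uncertain as a pair. The HSPA1B probe read 13.53 and 11.66 in Control, 14.63 and 14.33 in GADD45a, and 13.50 and 13.60 in ING1b. It read 14.32 and 14.21 in GADD45a+ING1b, 13.57 and 13.60 in ING1bΔPHD, and 13.96 and 14.36 in GADD45a+ING1bΔPHD. Every array labelled with GADD45a was above every array without it, a split seen after the values were known and given with no test. The change from Control was 1.88 (SE 0.448) in GADD45a and 0.95 in ING1b, then 1.67 for both proteins, 0.99 in ING1bΔPHD and 1.56 for GADD45a+ING1bΔPHD, with limma adjusted p from 0.0787 to 0.526, so none passed. These sizes turned on the control arrays, whose values lie far apart. Without Control replicate 2 the 5 changes were 0.95, 0.02, 0.74, 0.06 and 0.63. Without Control replicate 1 they were 2.82, 1.88, 2.60, 1.92 and 2.50. Each of these fits leaves 1 Control array, the low one in the second case, so only sizes are given. With both Control arrays kept, HSPA1B passed in GADD45a and in GADD45a+ING1b without background correction and with median scaling. With the replicate as a block it passed in GADD45a+ING1b. The HSPA1A probe was detected on only 2 arrays, 1 of GADD45a+ING1b and 1 of ING1bΔPHD. It passed in no comparison of the fit over all 12 arrays. In GADD45a+ING1b it was 1.20 above Control (5.89 and 6.13 against 4.87 and 4.76, limma adjusted p = 0.129).

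Among the other HSP70 and HSP110 genes no member passed in the fit over all 12 arrays. HSPA8, or HSC70, the housekeeping HSP70 of the cytosol, read 13.17 and 12.54 in Control and 13.07 to 13.38 on the other 10 arrays. Its largest change was 0.45 (SE 0.192, limma adjusted p = 0.239), in GADD45a+ING1b against Control. This change was 0.13 without Control replicate 2 and 0.76 without Control replicate 1, which leaves the low array alone in Control. HSPH1, the stress-inducible HSP110, read 11.77 and 10.80 in Control and 12.16 and 11.91 in GADD45a. It was 0.75 (SE 0.255, limma adjusted p = 0.208) above Control in GADD45a and 0.73 (adjusted p = 0.187) in GADD45a+ING1bΔPHD. Without Control replicate 2 these HSPH1 changes were 0.27 and 0.25, and without Control replicate 1 they were 1.24 and 1.22. In GADD45a+ING1b HSPH1 was 0.42 above Control, -0.07 without Control replicate 2 and 0.91 without Control replicate 1. HSPA4 and HSPA4L, the other HSP110 relatives, and HSPA14, which works at the ribosome, changed by -0.36 to 0.28 against Control. HSPA9, the mitochondrial HSP70 mortalin, changed by -0.12 to 0.13. A second HSPA4 probe, ILMN_1755134, changed by -0.09 to 0.40 and passed in none. In GADD45a+ING1b it was 0.06 above Control where the brightest was -0.36.

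In the HSP90 system and among the other HSP40 genes no member passed in the fit over all 12 arrays with the replicate numbers unused. HSP90AA1, the stress-inducible HSP90 of the cytosol, was 0.16 to 0.43 above Control in the 5 transfected groups by its brightest probe. Its other probes were 0.13 to 0.87 above Control (ILMN_1687546, highest in ING1b, 0.74, and GADD45a+ING1b) and 0.26 to 0.58 above it (ILMN_1691097, highest in GADD45a), and passed in none. HSP90AB1, the constitutive relative, changed by 0.00 to 0.29. Of the HSP90 co-chaperones, FKBP4, an immunophilin of steroid receptor complexes, changed by 0.09 to 0.47, CDC37, which brings kinases to HSP90, by 0.31 to 0.42, PTGES3 (p23) by -0.38 to 0.04 and CHORDC1 by -0.12 to 0.51. None of these passed. DNAJA1, an HSP40 of the cytosol, was 0.29 to 0.53 above Control in all 5 groups. DNAJA2 changed by 0.00 to 0.15, DNAJB5 by 0.08 to 0.47 and DNAJB6, which keeps polyglutamine proteins from aggregating, by 0.16 to 0.67. DNAJB4 changed by -0.57 to 0.17. Its second probe, ILMN_1813019, went the other way, 0.12 to 0.83 above Control, where it was not detected, and passed in none. BAG3, a nucleotide exchange factor of HSP70 that acts in selective autophagy, was 0.63 (SE 0.200, limma adjusted p = 0.180) above Control in GADD45a and 0.60 (adjusted p = 0.172) in GADD45a+ING1bΔPHD, while BAG2 changed by -0.39 to 0.07. Without Control replicate 1 DNAJB6 was 1.14 above the low Control array in GADD45a, 0.88 in GADD45a+ING1b and 1.05 in GADD45a+ING1bΔPHD. Without Control replicate 2 its changes in these groups were 0.20, -0.07 and 0.10.

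Chaperones of other compartments passed in no comparison of the unblocked fit. HSPD1 and HSPE1, the HSP60 and HSP10 of mitochondria whose genes lie head to head with 104 bases between them, changed by -0.07 to 0.12 and by -0.03 to 0.24 against Control. HSPD1 has 4 detected probes, of which ILMN_1784367 was 0.99 above Control in GADD45a (limma adjusted p = 0.194) where the brightest was 0.12. In the ER, HSPA5 read 8.63 and 8.41 in Control, 9.10 and 8.97 in ING1b, and 9.18 and 9.19 in GADD45a+ING1b. The other 6 arrays read 8.32 to 8.81 for HSPA5, below the 4 arrays with full-length ING1b. HSPA5 was 0.52 (limma adjusted p = 0.404) and 0.66 (SE 0.188, adjusted p = 0.0903) above Control in those 2 groups, while HSP90B1 (GRP94) changed by -0.06 to 0.19 and DNAJB9 by -0.05 to 0.33. SERPINH1 (HSP47), the collagen chaperone, was -0.26 to -0.47 against Control in all 5 groups, and HSPB1 (HSP27), a small heat shock protein, -0.45 to 0.05.

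**Figure D4:**
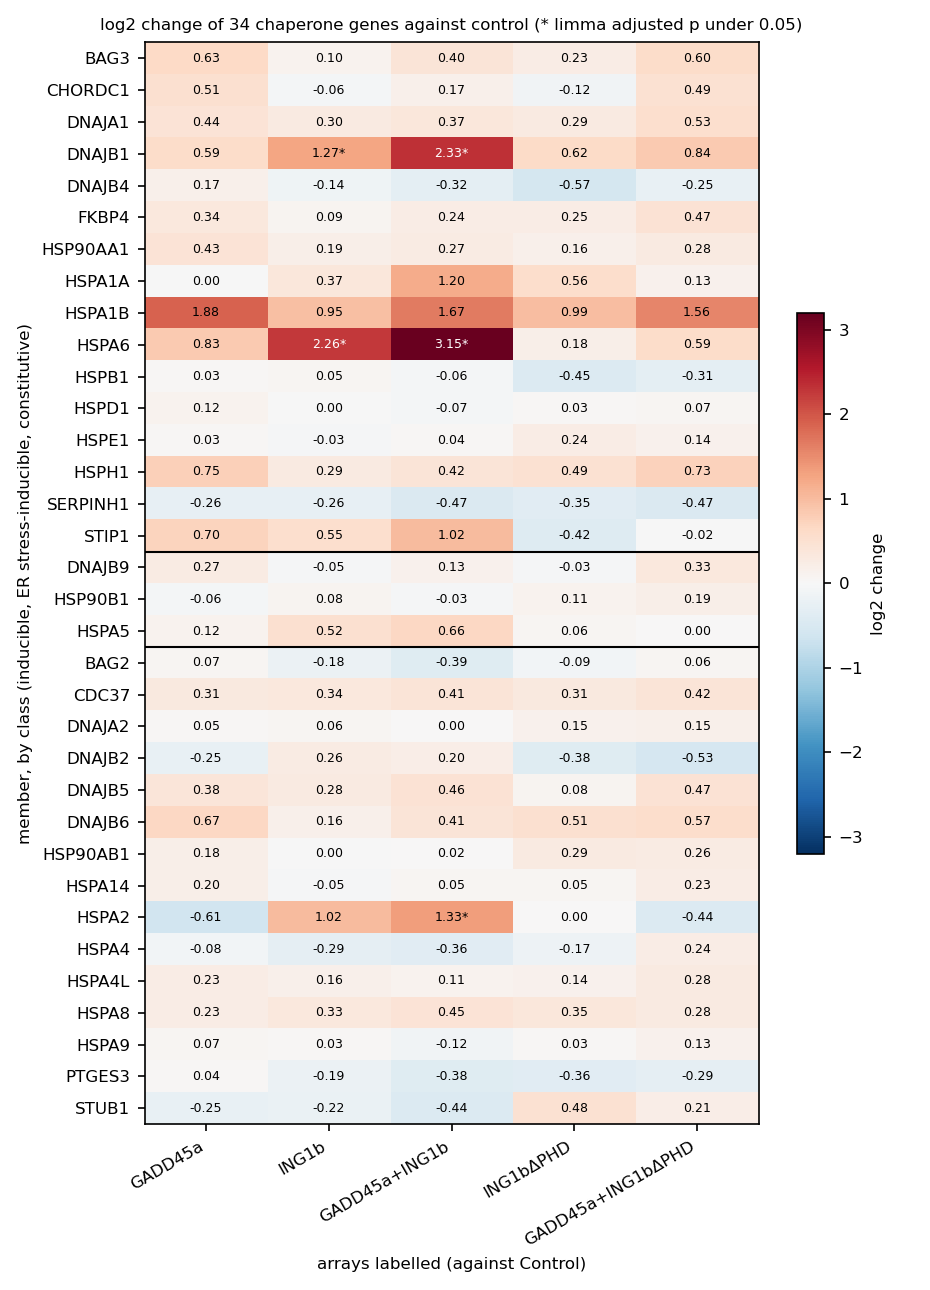
Log2 change against Control of the 34 tested chaperone genes (rows, by class) in the 5 transfected groups (columns), red for higher and blue for lower, with the value in each cell. HSPA6, DNAJB1 and HSPA2 are 3.15, 2.33 and 1.33 above Control in GADD45a+ING1b, and HSPA1B lies 0.95 to 1.88 above Control in all 5 groups.

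The stress-inducible genes were compared with the constitutive ones as the lists allow, by medians beside that of all genes. Against Control the median change of 16 stress-inducible genes was 0.44 in GADD45a and 0.15 in ING1b, then 0.32 in GADD45a+ING1b. It was 0.20 in ING1bΔPHD and 0.37 when GADD45a joined the truncated form. The median of 15 constitutive genes was 0.07, 0.06, 0.05, 0.08 and 0.23 in the same order, and that of all 10645 genes lay between -0.03 and 0.00. The inducible medians were thus the higher in all 5 groups, but the 5 comparisons share the Control arrays. Without Control replicate 2 the stress-inducible medians were 0.24, -0.02, 0.08, -0.08 and 0.09 and the constitutive medians 0.03, -0.04, -0.07, 0.03 and 0.10, so in ING1bΔPHD and GADD45a+ING1bΔPHD the order turned. Without Control replicate 1 the stress-inducible medians were 0.72, 0.40, 0.60, 0.46 and 0.50. The number of members above Control, of 34, was 27, 22, 24, 24 and 27 with both Control arrays and 22, 16, 17, 16 and 20 without Control replicate 2.

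The classes were also compared without the Control arrays. The stress-inducible and constitutive medians were 0.15 and -0.05 in GADD45a+ING1b against ING1b, and -0.13 and -0.14 in GADD45a+ING1b against GADD45a. They were 0.02 and -0.02 in ING1b against ING1bΔPHD, and -0.04 and -0.16 in GADD45a+ING1b against GADD45a+ING1bΔPHD. HSPA6 rose in each of these last 3 comparisons and DNAJB1 in the pair that has GADD45a on both sides, while the median of their class did not exceed 0.02 in any of the 3. Median scaling of the arrays, in place of quantile normalization, moved the median of all genes against Control in 4 groups by over 0.1 or close to it, to -0.23 in GADD45a, -0.30 with both full-length proteins, -0.11 in ING1bΔPHD and -0.20 in GADD45a+ING1bΔPHD. Under it the median of the 34 members against Control was -0.01, -0.14, 0.01 and 0.04 in these groups, in place of 0.19, 0.19, 0.13 and 0.24, so its direction flips in GADD45a and GADD45a+ING1b. Relative to all genes it was 0.22, 0.16, 0.12 and 0.24 with median scaling and 0.20, 0.22, 0.14 and 0.25 with quantile normalization. With median scaling 14.3% of all genes passed in GADD45a+ING1b against Control, in place of 2.69%. The members called there were 4 rises, HSPA1B added, and 3 falls, in HSPA4, SERPINH1 and STUB1, in place of 3 rises and 0 falls. The second HSPA4 probe was 0.06 above Control there with quantile normalization.

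**Figure D5:**
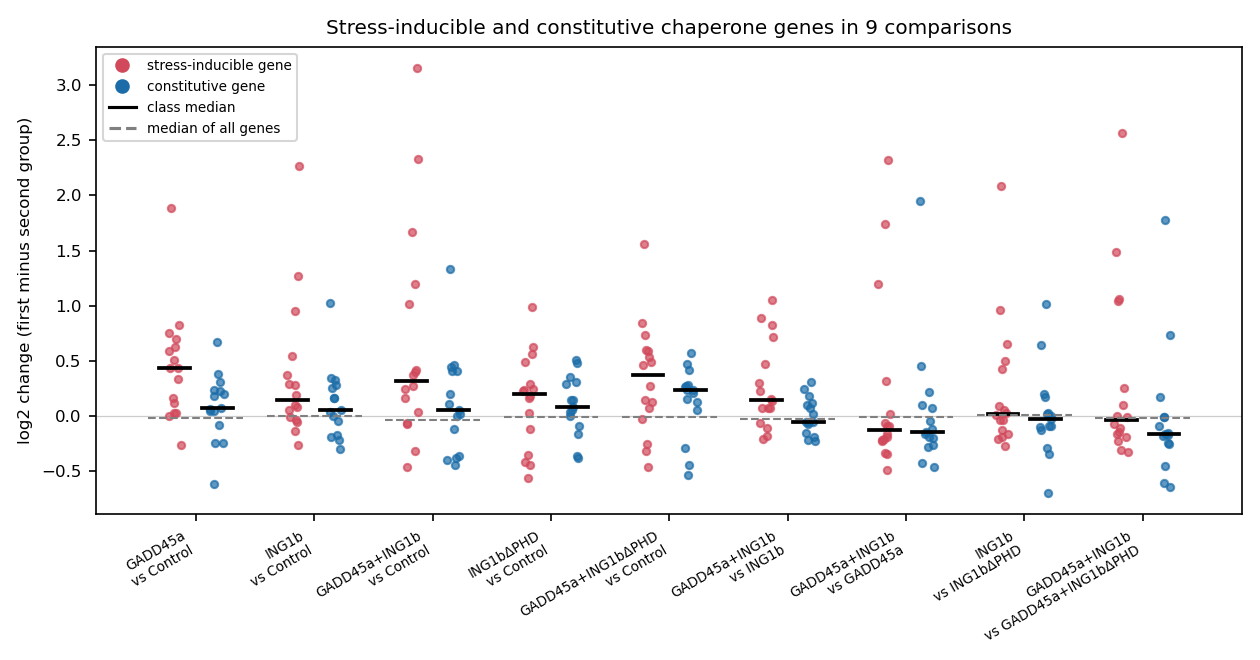
Log2 change of each stress-inducible (red) and constitutive (blue) chaperone gene in 9 comparisons, with black bars for class medians and dashed lines for the median of all genes. Class medians lie between -0.16 and 0.44, and the highest points are those of HSPA6, DNAJB1, HSPA2 and HSPA1B.

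Other genes of protein folding and stress were read from lists beside the members. Their comparisons with Control were not read without Control replicate 2, so how far their calls depend on that array is not known. Of other folding genes, 13 of 14 genes of the TRiC chaperonin and prefoldin and 21 of 23 further co-chaperones were tested. Of these 0 passed in any of the 10 comparisons, with or without the replicate block. The share of all genes that passed was itself 0 to 2.69% without the block and at most 9.26% with it. Of 16 genes of ER folding and the unfolded protein response, 14 were tested and CRELD2, an ER stress target, rose in GADD45a+ING1b against GADD45a (0.79, SE 0.143, limma adjusted p = 0.0443). With the block DNAJB11, an ER HSP40, also rose in GADD45a+ING1b against Control (0.66, blocked adjusted p = 0.0156). Of 10 genes of other stress responses, 9 were tested. GADD45B, a relative of GADD45A, rose in each of the 5 comparisons of full-length ING1b with its absence or truncation, by 1.27 to 3.09 (SE 0.167). EGR1, an immediate early transcription factor, rose in the same 5, by 1.58 to 3.28 (SE 0.247). FOS rose in GADD45a+ING1b against GADD45a, at least 1.74-fold (limma adjusted p = 0.0255), and JUN rose in GADD45a against Control (0.95, SE 0.175, limma adjusted p = 0.0446). With the replicate as a block more of these 9 genes rose against Control, also without full-length ING1b. In GADD45a PPP1R15A, a phosphatase subunit of the integrated stress response, rose beside JUN (1.15, blocked adjusted p = 0.0176), where 3.67% of all genes passed. In GADD45a+ING1bΔPHD 3 of 9 rose, where 6.06% of all genes passed. These were SQSTM1 (0.56, blocked adjusted p = 0.0416), PPP1R15A (1.03, blocked adjusted p = 0.0220) and JUN (0.83, blocked adjusted p = 0.0207). With both full-length proteins 6 of 9 rose, in place of 2, where 9.26% of all genes passed. The added genes were SQSTM1 (0.72, blocked adjusted p = 0.0153), ATF3 (0.79, 0.0407), PPP1R15A (1.07, 0.0113) and JUN (0.52, 0.0466).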

How the data were processed

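The authors deposited, for each of 12 arrays, an intensity per probe (the scanner table, with array medians of 129.3 to 140.4, so not normalized between arrays) and a detection p-value, in steps that fit 770 negative controls. Their second deposited intensity table, with values below 0, was used as an alternative. Per the submitters' processing notes GenomeStudio 2011.1 was used, with options not given in the sources used here. Biotinylated cRNA was made from total RNA, per the labels' protocols.

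Intensities were background-corrected with nec of limma 3.58.1 (R 4.3.3), given an offset of 16, quantile-normalized and put on the log2 scale. The filter kept 17814 probes that had a detection p under 0.01 on 2 or more arrays, and the brightest of a gene's detected probes stood for it. Of 47323 probes, 30113 carried 1 symbol, 8 several and 17202 none. Between 14555 and 16301 probes were detected per array, and replicates correlated at 0.980 to 0.987. A group-means model over 12 arrays was fitted with limma, with Benjamini-Hochberg adjustment over 10645 genes in each of 10 comparisons. A fold is a lower bound ("at least") where a group had no detected array, with that group at the detection floor of its arrays. The labels call replicates independently transfected. They do not say that numbers pair groups, but replicate differences of all 15 pairs of groups correlated at 0.246 to 0.477, so values with the replicate block are given where they change a call of a member or of a listed gene. The procedure was tested on simulated data.

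The members, lists and class assignment were chosen with earlier results of these data known. All members with a call were named, and the others by class and role. The motif of block pairs was added after the 3-block search had found no match at DNAJB1 and HSPA1B. Alternatives were no background correction, median scaling, the deposited normalized intensities, no filter, detection on all 12 arrays, the mean over a gene's probes, the replicate block, every detected probe singly, and leaving out each array, where the remaining array of that group takes its spread from the others. Gene positions and promoters are from RefSeq.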

Additional observations from a re-analysis of the deposited data

How the results depend on the processing

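No member that passed changed direction under the alternatives that tested it. Calls were lost under several, as given above, and the difference of class medians changed sign in some cases given below. The count of members called in GADD45a against Control (0) was 1 without background correction and 1 with median scaling, HSPA1B in both. This count was higher without Control replicate 1 and unchanged without any other single array. In ING1b against Control (2) it was 1 with the authors' deposited values, 1 with detection on all 12 arrays and 0 to 3 with single arrays left out. In GADD45a+ING1b against Control (3) it was 5 without background correction, 7 with median scaling, 1 with detection on all 12 arrays, 5 with the replicate block and 2 to 7 with single arrays left out. In ING1bΔPHD against Control (0) it was 0 to 1 with single arrays left out. In GADD45a+ING1bΔPHD against Control (0) it was 1 without background correction, 1 with median scaling, 2 with the replicate block and 0 to 4 with single arrays left out. In GADD45a+ING1b against ING1b (0) it was 1 without background correction, 1 with the replicate block and 0 to 1 with single arrays left out, and in GADD45a+ING1b against GADD45a (3) it was 1 with detection on all 12 arrays. In ING1b against ING1bΔPHD (1) it was 0 with the deposited values, with detection on all 12 arrays and with the mean over probes, and 0 to 1 with single arrays left out. In GADD45a+ING1b against GADD45a+ING1bΔPHD (3) it was 1 with detection on all 12 arrays, 5 with the replicate block and 1 to 3 with single arrays left out. With the deposited values HSPA2 was also lost in GADD45a+ING1b against Control and against GADD45a+ING1bΔPHD, which left 2 members in each. Detection on all 12 arrays leaves HSPA6 and HSPA2 untested, which accounts for those losses, and the cause of the other changes was not tested. Pairing the replicates changed no other call of a member. With all 12 arrays kept, calls against Control over all 10645 genes moved most with median scaling and the block. They went to 434 and 391 from 70 in GADD45a, to 1517 and 986 from 286 in GADD45a+ING1b and to 392 and 645 from 55 in GADD45a+ING1bΔPHD. Without background correction they were 125, 450 and 122 in the same groups. GADD45a+ING1b against ING1b went from 38 to 48 without that correction and to 64 with the block. Member counts did not always follow the calls over all genes. In GADD45a against Control the block gave 391 genes and 0 members, and no background correction gave 125 genes and 1 member. Against Control the highest member counts with single arrays left out were those without Control replicate 1, where only the low array is left. Calls over all genes against Control also rose without that array. Without Control replicate 2 they fell in every group that had any, so many of them depend on the low array. The share of all genes that passed thus differed between the fits with single arrays left out.

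The median of stress-inducible minus that of constitutive genes moved by more than the spread in these cases. In GADD45a against Control (0.36) it was 0.27 with no detection filter and 0.21 to 0.58 with single arrays left out. In ING1b against Control (0.09) it was 0.19 with the mean over probes and 0.0078 to 0.24 with single arrays left out. It was 0.14 to 0.49 with single arrays left out in GADD45a+ING1b against Control (0.27), and -0.11 to 0.27 in ING1bΔPHD against Control (0.12). In GADD45a+ING1bΔPHD against Control (0.14) it was 0.0352 without background correction, -0.048 with no detection filter, and -0.0046 to 0.34 with single arrays left out. In GADD45a+ING1b against GADD45a (0.02) it was -0.0819 to 0.0162, and in GADD45a+ING1b against GADD45a+ING1bΔPHD (0.13) 0.27 with the mean over probes and 0.03 to 0.19 with single arrays left out. For the interaction (-0.05) it was -0.154 to 0.00414.

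A slide block was not run, since the columns used name no slide. HSPA6, HSPA2 and HSPA1A lay near background on many arrays, which limits their fold changes. With 2 arrays per group and 1 low control array, changes against Control are the least certain.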
